A study of Mus musculus with 10 samples.

Results

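The mitochondrial carriers are the Slc25 family of solute carriers. The members were taken from the array as every gene name of the form Slc25a followed by a number, and 42 of the 35527 gene names on the array matched. Of these 42 carriers, 36 gave a signal well above background in the aorta channel on at least 5 of the 10 arrays and were tested, as were 22520 gene names in all. The 6 that did not pass were Slc25a2, Slc25a15, Slc25a18, Slc25a21, Slc25a31 and Slc25a41. Each array compared, in 2 colours, RNA from the infrarenal aorta of 1 mouse (red dye) with a universal mouse reference RNA (green dye). All mice were male C57BL/6J, operated on at 10 weeks of age, and aortas were taken 7 days later. In the sham group (n = 5) the clamped aorta was infused with saline for 5 min at 100 mmHg, and in the PPE group (n = 5) with saline holding type I porcine pancreatic elastase at 1.5 U/mL. PPE infusion is a model of abdominal aortic aneurysm in which an enzyme injures the elastic wall, and the whole infused segment was sampled, with every cell type it held. Values below are log2 ratios of aorta over reference, so that a difference of 1 between groups is a doubling, and no value says how abundant a carrier was beside another carrier. Because the tissue was measured in bulk, fewer cells of a type and less RNA per cell cannot be told apart.

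The inner mitochondrial membrane is closed to most metabolites, and Slc25 carriers are the proteins that let them through. Most are built of repeated transmembrane segments, are made in the cytosol from nuclear genes, and exchange one small molecule for another. They export ATP and bring in ADP, phosphate, acylcarnitines, amino acids, iron and cofactors such as coenzyme A, so each carrier ties the mitochondrion to a particular pathway of the cell. The family is known for tissue-specific pairs, such as the ADP/ATP translocases Slc25a4 of muscle and heart and Slc25a5 of dividing cells.

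As a check of the tissue, all 7 smooth muscle markers passed the filter, and 5 of them (Acta2, Cnn1, Tagln, Smtn, Lmod1) were lower after PPE. Macrophage markers were higher (6 of 6), neutrophil markers were higher (4 of 5), and the 6 markers of brown fat (Ucp1, Cidea, Cox7a1, Cox8b, Elovl3, Ppargc1a) were all lower. None of 6 markers of fat in general, 5 of endothelium or 6 of skeletal muscle was called. The 6 markers of fat in general nevertheless all had log2 fold changes below 0. Their summed aorta signal ranged from 575386 to 819700 in sham and from 224699 to 382712 in PPE (linear intensity). Between 37.6% (sham 5) and 65.8% (PPE 1) of spots were well above background in the aorta channel, and PPE 5 had 45.8%.

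Among the 36 tested carriers, 9 were lower and 4 were higher after PPE at an adjusted p under 0.01 (limma, Benjamini-Hochberg over 22520 names). That is 25% lower, 11.1% higher and 36.1% either way, where over all tested names 9.96% were lower, 13.9% were higher and 23.8% went either way. The median log2 fold change of the carriers was -0.31, with 26 below 0 and 10 above, and that of all tested names was 0.02. In 9 carriers every PPE value lay below every sham value and in 3 every PPE value lay above, which is 25% and 8.33% of those tested. Over all names those shares were 10.5% and 15.0%. Those called lower included Slc25a42, Slc25a33, Slc25a1, Slc25a20, Slc25a4, Slc25a34, Slc25a39 and Slc25a23, and those called higher were Slc25a45, Slc25a13, Slc25a28 and Slc25a24. All 13 had the same sign in the difference between groups on each of the 2 slides that held both groups. The arrays of these slides were among those that gave the calls, so this agreement is not independent of them. Without the loess step, with each array only centred on its median, no carrier was called and the median of all names moved to 0.41, but all 13 still lay on the same side of that median as before.

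**Figure D1:**
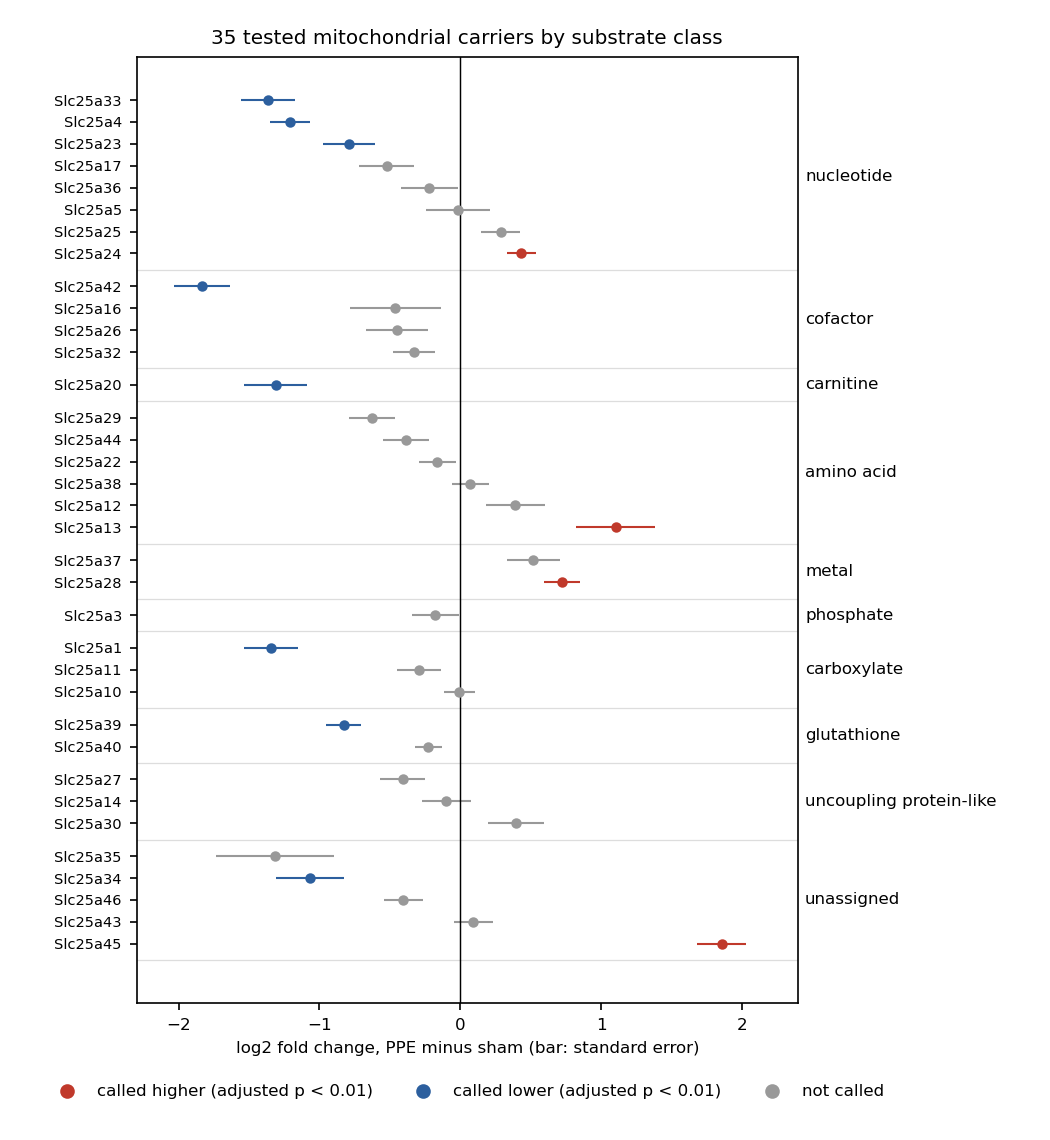
Log2 fold change (PPE minus sham, horizontal axis) with its standard error for 35 tested carriers, grouped by transported substrate on the vertical axis. Blue points (8) were called lower, red points (4) higher and grey points (23) were not called. The values run from -1.84 for Slc25a42 to 1.86 for Slc25a45, and called carriers of both directions occur within the nucleotide class.

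Nucleotide carriers move ADP, ATP and other nucleotides, and 8 of the 10 on the array were tested. Slc25a4, Slc25a33 and Slc25a23 fell, Slc25a24 rose, 4 were not called, and the class median was -0.37. The promoters of the ADP/ATP translocases Slc25a4 and Slc25a5 are shown because these paralogues moved apart. They are RefSeq promoters (GRCm38.p6, 250 bases before the start to 50 after it, 5′ to 3′ on the strand of the gene), with the letters TATAA in capitals.
Slc25a4 promoter, chr8:46211013-46211312, minus strand: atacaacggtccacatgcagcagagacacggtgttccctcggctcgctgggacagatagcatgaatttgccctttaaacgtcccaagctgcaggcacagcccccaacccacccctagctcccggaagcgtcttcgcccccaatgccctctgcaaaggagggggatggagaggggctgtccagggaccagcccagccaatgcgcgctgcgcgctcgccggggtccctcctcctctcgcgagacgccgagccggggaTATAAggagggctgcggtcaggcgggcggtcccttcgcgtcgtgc
Slc25a5 promoter, chrX:36795347-36795646, plus strand: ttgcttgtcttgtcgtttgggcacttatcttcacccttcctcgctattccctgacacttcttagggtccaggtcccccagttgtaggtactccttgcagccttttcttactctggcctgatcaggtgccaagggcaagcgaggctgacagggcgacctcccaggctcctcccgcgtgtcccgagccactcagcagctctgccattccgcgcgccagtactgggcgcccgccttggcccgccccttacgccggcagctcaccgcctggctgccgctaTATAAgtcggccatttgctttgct
Both hold the letters TATAA, at bases 256 to 260 of the window in Slc25a4 and 277 to 281 in Slc25a5. On either strand TATAA occurs in 24.9% of all 32851 promoters of the table, and in 5 of the 32 carriers that have an entry there. The array read Slc25a4 through the 60-base probe below, which has 1 reading frame without a stop codon (mm9, the build of every probe position given here).
Slc25a4 probe, chr8:47292828-47292887, minus strand: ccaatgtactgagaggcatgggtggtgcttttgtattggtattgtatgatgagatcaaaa

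Slc25a4 stood at log2 ratios of 1.35, 1.26, 1.35, 1.68 and 0.91 in sham aortas 1 to 5 and at -0.02, 0.32, 0.13, 0.12 and -0.06 in PPE aortas 1 to 5. The groups were apart, with the lowest sham value above the highest PPE value, and the fold change was -1.21 on the log2 scale (SE 0.14, adjusted p = 5.84e-05), or 2.31-fold lower. Slc25a5, whose product does the same exchange, stood at 0.11, -0.10, 0.34, -0.13 and -0.45 in sham and at 0.41, -0.48, -0.12, 0.46 and -0.58 in PPE. Here the groups overlapped throughout, and the log2 fold change was -0.02 (SE 0.23, adjusted p = 0.965).

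Slc25a33 (probe at chr4:149118713-149118772), a carrier of pyrimidine nucleotides, gave 0.11, 0.05, 0.37, 0.10 and -0.70 in sham and -1.40, -1.68, -1.46, -1.15 and -1.21 in PPE. Every PPE aorta was below every sham aorta, although sham 5 lay well under the other sham samples, and the log2 fold change was -1.37 (SE 0.19, adjusted p = 0.000188). A second probe of the gene gave -1.15. Slc25a36, the other pyrimidine nucleotide carrier, had a log2 fold change of -0.22 (adjusted p = 0.446) and overlapping groups.

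The calcium-regulated carriers that exchange ATP-Mg for phosphate, and so set the size of the matrix nucleotide pool, went in both directions. Slc25a23 (probe at chr17:57183867-57183926) was at 1.11, 0.44, 0.46, 0.88 and 0.18 in sham and at -0.32, 0.24, -0.34, -0.20 and -0.24 in PPE, with a log2 fold change of -0.79 (SE 0.18, adjusted p = 0.00601). PPE 2 reached past sham 5, so the groups overlapped, and the probe was well above background on 4 sham and 3 PPE arrays. Slc25a24 (probe at chr3:108971266-108971325) was at -1.30, -1.33, -1.53, -1.29 and -1.19 in sham and at -0.97, -0.77, -0.76, -0.94 and -1.02 in PPE. All PPE aortas were above all sham aortas by a small margin, and the log2 fold change was 0.43 (SE 0.10, adjusted p = 0.00618). Slc25a25, the third of these carriers, was not called (0.29, adjusted p = 0.134, and 0.16 from a second probe), nor was Slc25a17 of the peroxisome (-0.52, adjusted p = 0.0561).

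The call of Slc25a23 was lost without sham 1, 2 or 4 or PPE 1, 3, 4 or 5 (limma adjusted p up to 0.0185). That of Slc25a24 was lost without any 1 of sham 1 to 4 or PPE 1 to 4 (adjusted p up to 0.0197). It was also lost with a normexp offset of 16 (adjusted p = 0.0116) and with the scanner software's log ratios (adjusted p = 0.016). With the scanner software's own log ratios the log2 fold change of Slc25a23 was -2.20 in place of -0.79. The calls of Slc25a4 and Slc25a33 held whichever array was left out.

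**Figure D2:**
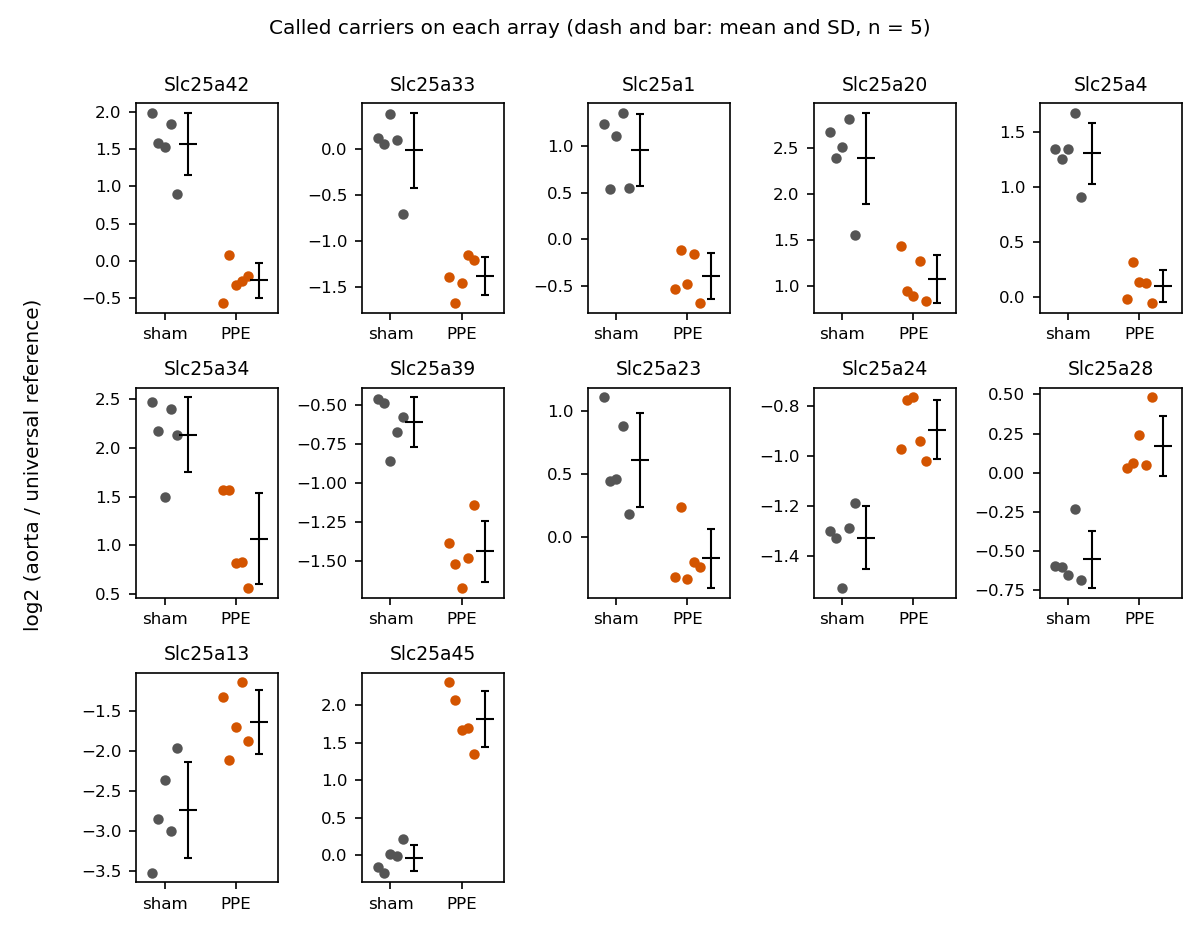
Log2 ratio of aorta over universal reference (vertical axis, a separate scale in each panel) on each of the 5 sham (grey) and 5 PPE (orange) arrays for 12 called carriers, with the mean and SD of each group. The groups do not overlap in 9 panels, and they overlap in those of Slc25a34, Slc25a23 and Slc25a13.

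Cofactor carriers bring molecules such as coenzyme A, S-adenosylmethionine, folate and flavins to the matrix. Slc25a42 fell, and 3 were not called, with log2 fold changes of -0.46 (Slc25a16), -0.45 (Slc25a26, and -0.62 from a second probe) and -0.33 (Slc25a32). Slc25a42 (probe at chr8:72708298-72708357), the coenzyme A carrier, had log2 ratios of 1.99, 1.59, 1.53, 1.85 and 0.90 in sham and -0.58, 0.08, -0.33, -0.28 and -0.21 in PPE. The lowest sham aorta, sham 5, was still above the highest PPE aorta, PPE 2. Its log2 fold change of -1.84 (SE 0.20, adjusted p = 3.25e-05, 3.57-fold lower) was the largest fall among the tested carriers. Slc25a51, a carrier of NAD, is on the array under its older name Mcart1, outside the naming rule, and was lower by the same test (log2 fold change -1.10, SE 0.13, adjusted p = 4.89e-05).

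The carnitine class is a single gene, Slc25a20, the carnitine-acylcarnitine translocase through which long-chain fatty acids reach the matrix for oxidation. Its promoter is shown because it was the 1 carrier promoter of 32 with the GABPA motif CCGGAAGT (capitals, searched on both strands), which 3.89% of all promoters hold. The probe follows it.
Slc25a20 promoter, chr9:108661886-108662185, plus strand: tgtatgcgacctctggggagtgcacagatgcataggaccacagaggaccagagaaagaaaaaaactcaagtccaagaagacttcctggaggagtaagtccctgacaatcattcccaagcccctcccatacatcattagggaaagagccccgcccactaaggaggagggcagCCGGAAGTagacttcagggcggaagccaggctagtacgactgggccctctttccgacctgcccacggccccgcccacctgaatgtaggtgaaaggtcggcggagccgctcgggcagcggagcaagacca
Slc25a20 probe, chr9:108585399-108585458, plus strand: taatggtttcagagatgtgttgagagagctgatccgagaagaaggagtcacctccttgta
Slc25a20 stood at 2.67, 2.39, 2.50, 2.81 and 1.55 in sham and at 1.43, 0.95, 0.89, 1.27 and 0.84 in PPE. The groups were apart, with sham 5 and PPE 1 nearest to each other, and the log2 fold change was -1.31 (SE 0.22, adjusted p = 0.000822, 2.48-fold lower). Of the 6 other genes listed for the carnitine shuttle, 3 fell and none rose. They were Cpt1b, the muscle form of the outer membrane transferase (-3.16, adjusted p = 3.66e-06), Cpt2, its inner membrane partner (-1.77, adjusted p = 1.51e-05), and Crat, which acts on short chains (-1.23, adjusted p = 0.000327). Cpt1a, the liver form, had 0.35 (adjusted p = 0.0904), and Slc22a5, the plasma membrane carnitine transporter, -0.64 (adjusted p = 0.0192).

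Among amino acid carriers none of the 6 tested (of 9) was called lower by the main test and Slc25a13 rose, with a class median of -0.05. Slc25a13 and Slc25a12 exchange aspartate for glutamate, a step of the malate-aspartate shuttle. Slc25a13 (probe at chr6:5991482-5991541) was at -3.52, -2.85, -2.36, -3.00 and -1.96 in sham and at -1.32, -2.12, -1.71, -1.14 and -1.88 in PPE. Its sham values spread widely and sham 5 overlapped with PPE 2, and its log2 fold change of 1.10 (SE 0.28, adjusted p = 0.0097) was close to the threshold. In the 10 fits that each left out 1 array, the call held only without sham 5 or without PPE 2, and with the scanner software's log ratios the log2 fold change was 2.14.

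Slc25a12 had a log2 fold change of 0.39 (SE 0.21, adjusted p = 0.179). Slc25a29, a carrier of arginine and lysine, had sham values of 1.32, 0.87, 0.94, 0.94 and 0.55 and PPE values of 0.51, 0.50, 0.42, 0.17 and -0.13. Its groups did not overlap, but it missed the threshold (log2 fold change -0.63, SE 0.17, adjusted p = 0.0119). Slc25a29 stayed uncalled in 14 of 24 alternative fits. In the others it was called lower, among them those with a normexp offset of 16, with the scanner software's log ratios and with SAM. Slc25a22, a glutamate carrier, had -0.16 (SE 0.13), and Slc25a38, a glycine carrier of haem synthesis, 0.07 (SE 0.13). For Slc25a44, a carrier of branched-chain amino acids, the 2 probes disagreed in sign, with -0.39 from the brighter one used here and 0.61 from the other, so no direction is given for it. The ornithine carriers Slc25a2 and Slc25a15 were not well above background on enough arrays. In the list of arginine and ornithine enzymes, Arg1 (3.50, adjusted p = 0.000679), Arg2 and Ass1 (1.45, adjusted p = 4.61e-05) rose and Oat, which degrades ornithine in the matrix, fell (-0.60, adjusted p = 0.00713). Arg2, the mitochondrial arginase, was not well above background on any sham array and was at least 4.13-fold higher in PPE, where the bound sets the mean PPE signal against the lowest signal detected on each sham array (adjusted p = 0.00592).

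The metal class holds the mitoferrins, which carry iron to the matrix for haem and iron-sulphur clusters. Slc25a28 (probe at chr19:43738444-43738503), mitoferrin 2 of most tissues, was at -0.59, -0.60, -0.65, -0.23 and -0.69 in sham and at 0.03, 0.06, 0.24, 0.05 and 0.48 in PPE. Every PPE aorta lay above 0 and every sham aorta below it, and the log2 fold change was 0.73 (SE 0.13, adjusted p = 0.000969, 1.65-fold higher). Slc25a37, mitoferrin 1 of red cell precursors, had sham values of -1.09, -1.42, -0.88, -1.69 and -0.72 and PPE values of -0.41, -0.93, -0.75, -0.41 and -0.69. These overlapped, and the log2 fold change of 0.52 (SE 0.19) missed the threshold (adjusted p = 0.0518). A second probe of Slc25a37 gave 0.28.

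Of 9 listed genes of haem and iron handling, 2 rose and 3 fell. Hmox1, which breaks down haem, rose by a log2 fold change of 2.35 (adjusted p = 7.32e-06), and Ftl1, a ferritin chain, by 1.06 (adjusted p = 2.36e-05). Those lower act in haem synthesis or beside it. They were Alas2 (-1.78, adjusted p = 0.00329), the ferrochelatase gene Fech (-0.62, adjusted p = 0.000855) and Abcb10 (-0.57, adjusted p = 0.00357). Alas1, of the same list, was not called (-0.13, adjusted p = 0.752). Alas2 is also a marker of red cell precursors. Of the 6 such markers 4 were tested, and Alas2 and the haemoglobin gene Hba-a1 fell (-1.15, adjusted p = 0.0053). The summed aorta signal of the 4 tested markers ranged from 191334 to 587602 in sham and from 10265 to 72316 in PPE (linear intensity). The part of red cell precursors in these values was not tested.

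The phosphate class is the single gene Slc25a3, which supplies phosphate to ATP synthase and copper to cytochrome oxidase. It was at -0.02, -0.63, -0.72, -0.52 and -0.49 in sham and at -0.56, -0.24, -0.82, -0.71 and -0.96 in PPE. The groups overlapped, with a log2 fold change of -0.18 (SE 0.17, adjusted p = 0.457), and a second probe gave -0.10. Genes named as subunits of oxidative phosphorylation, among them those of ATP synthase, were lower in 71 of 81 tested (87.7%), with a median of -1.15.

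Carriers of carboxylates, 3 of 4 tested, include Slc25a1, which exports citrate for fatty acid and sterol synthesis. Slc25a1 (probe at chr16:17925661-17925720) was at 1.23, 0.54, 1.11, 1.35 and 0.55 in sham and at -0.53, -0.11, -0.48, -0.16 and -0.68 in PPE. All sham values were above 0 and all PPE values below it, and the log2 fold change was -1.35 (SE 0.19, adjusted p = 0.000212, 2.54-fold lower). The oxoglutarate carrier Slc25a11 (-0.29, SE 0.16) and the dicarboxylate carrier Slc25a10 (-0.01, SE 0.11) were not called. Pyruvate enters through a carrier outside the family, whose subunit genes are on the array as Brp44 and Brp44l. Both fell, by 1.66 and 2.06 on the log2 scale (adjusted p = 1.1e-05 and 1.65e-06).

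Glutathione is imported by Slc25a39 and Slc25a40. The probe of Slc25a39, the called one, is given here, and its positions cover more than 60 bases of the genome, as those of a probe across a splice junction do.
Slc25a39 probe, chr11:102266350-102267022, minus strand: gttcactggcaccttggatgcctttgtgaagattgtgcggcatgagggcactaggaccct
Slc25a39 was at -0.46, -0.49, -0.85, -0.67 and -0.58 in sham and at -1.38, -1.52, -1.67, -1.48 and -1.14 in PPE. The groups were apart with little spread in either, and the log2 fold change was -0.83 (SE 0.12, adjusted p = 0.000325). Slc25a40 was at -0.50, -0.53, -0.47, -0.57 and -0.33 in sham and at -0.63, -0.60, -0.68, -0.71 and -0.92 in PPE. Its groups did not overlap either, but the difference was small and was not called (-0.23, SE 0.10, adjusted p = 0.0992).

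The carriers most like uncoupling proteins, Slc25a14, Slc25a27 and Slc25a30, were not called, with log2 fold changes of -0.10, -0.41 and 0.40. The uncoupling proteins themselves, which bear Ucp names and so fall outside the rule, were called in opposite directions. Ucp1, which makes heat in brown fat, fell by 2.94 on the log2 scale (SE 0.49, adjusted p = 0.00072). Ucp2, abundant in immune cells, rose by 2.07 (SE 0.20, adjusted p = 1.41e-05), and Ucp3, known from muscle and brown fat, rose by 1.82 (SE 0.16, adjusted p = 6.61e-06).

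Of the 5 carriers with no substrate assigned here, Slc25a45 rose and Slc25a34 fell. Slc25a45 (probe at chr19:5885329-5885388) was at -0.15, -0.23, 0.01, -0.01 and 0.22 in sham and at 2.31, 2.08, 1.67, 1.70 and 1.36 in PPE. The groups lay far apart, and the log2 fold change of 1.86 (SE 0.17, adjusted p = 1.14e-05, 3.62-fold higher) was the largest rise among the tested carriers. Slc25a34 (probe at chr4:141174747-141174806) was at 2.47, 2.18, 1.50, 2.39 and 2.13 in sham and at 1.57, 1.57, 0.81, 0.82 and 0.56 in PPE, so that sham 3 fell just under PPE 1 and PPE 2 (log2 fold change -1.07, SE 0.24, adjusted p = 0.00478). This call was lost without sham 1, 2, 4 or 5 or PPE 3 or 4 (adjusted p up to 0.0153), with a normexp offset of 16 and with the scanner software's log ratios, where the log2 fold change was -0.55. Its near relative Slc25a35 had a log2 fold change of -1.31 but a wide spread, from 1.21 to 3.47 in sham and from 0.34 to 1.84 in PPE, and was not called (SE 0.42, adjusted p = 0.0295). Slc25a35 stayed uncalled in 16 of 24 alternative fits and was called lower in the others. Slc25a46, an outer membrane protein of mitochondrial dynamics, had -0.40 (adjusted p = 0.0429) and -0.16 from a second probe, and Slc25a43 had 0.09 (adjusted p = 0.658).

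The promoter of Slc25a34 is shown because it was the 1 of 32 carrier promoters with the half-site AAGGTCA of the oestrogen-related receptors (capitals, here as TGACCTT on the strand of the gene). That motif occurs on either strand in 4.72% of all promoters.
Slc25a34 promoter, chr4:141623785-141624084, minus strand: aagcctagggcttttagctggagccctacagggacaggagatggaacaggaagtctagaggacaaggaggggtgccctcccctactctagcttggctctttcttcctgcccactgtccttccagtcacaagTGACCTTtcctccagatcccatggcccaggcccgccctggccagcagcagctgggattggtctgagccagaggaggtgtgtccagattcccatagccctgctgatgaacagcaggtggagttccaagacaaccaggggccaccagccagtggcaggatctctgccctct
The core of the NRF1 motif, CGCATGCG, occurred in none of the 32 and in 1.87% of all promoters, and CCAAT occurred in 17 of the 32 and in 37.4% of all. Among the regulators of mitochondrial biogenesis, Ppargc1a (-2.25, adjusted p = 0.000138) and Ppargc1b (-0.86, adjusted p = 0.00327) fell, whereas Esrra (-0.44), Gabpa (-0.17), Nrf1 (0.27) and Tfam (0.01) were not called.

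Related carriers were also set against each other on the same array, by the difference of their log2 ratios. The difference itself has no meaning between probes, but its shift from sham to PPE does. Of 12 pairs listed, 10 had both genes tested, and 5 shifted with an adjusted exact permutation p under 0.05 (252 relabellings, adjusted over the 10 pairs). The pairs were chosen with earlier results of these data known, so these p-values cannot be read as those of pairs fixed beforehand. Slc25a4 shifted against Slc25a5 by -1.19 (exact permutation p = 0.00794, the smallest possible, adjusted 0.0397), with differences of 1.23, 1.35, 1.0, 1.81 and 1.36 in sham and -0.43, 0.79, 0.25, -0.33 and 0.52 in PPE. No PPE difference reached the lowest sham difference. Slc25a23 shifted against Slc25a24 by -1.22, also without overlap (exact permutation p = 0.00794, adjusted 0.0397), and by -2.61 with the scanner software's log ratios. Slc25a16 shifted against Slc25a42 by 1.37 and Slc25a33 against Slc25a36 by -1.15 (both exact permutation p = 0.0159, adjusted 0.0398). Slc25a39 shifted against Slc25a40 by -0.60 (exact permutation p = 0.0238, adjusted 0.0476).

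The pairs Slc25a28 and Slc25a37 (shift 0.21), Slc25a24 and Slc25a25 (0.15), Slc25a34 and Slc25a35 (0.25), Slc25a10 and Slc25a11 (0.28) and Slc25a12 and Slc25a13 (-0.71) did not pass, with exact permutation p from 0.111 to 0.548, which does not show that their members moved alike. Slc25a12 against Slc25a13 did pass with the scanner software's log ratios (shift -1.77, exact permutation, adjusted p = 0.0265) and without sham 5 (-1.01, adjusted p = 0.0476). The 5 shifts that passed had the same sign on both slides with both groups, whose arrays were among those tested, so this is not independent of the test. Leaving out any 1 of 8 arrays (sham 1 to 4, PPE 1 to 4) brought the number of pairs past the threshold to 0, and without sham 5 or PPE 5 it was 5 and 4.

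**Figure D3:**
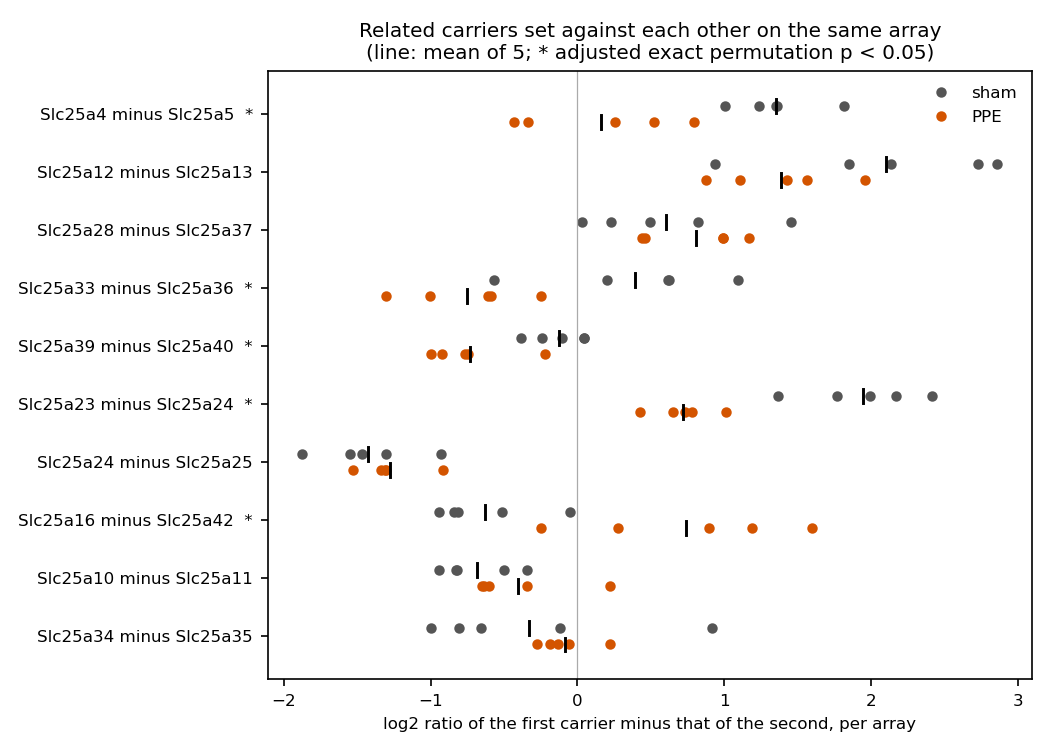
Difference of log2 ratios between 2 related carriers on the same array (horizontal axis) for 10 pairs (vertical axis), with 5 sham (grey) and 5 PPE (orange) arrays and the mean of each group as a line. The groups do not overlap for Slc25a4 minus Slc25a5 and for Slc25a23 minus Slc25a24, and 5 pairs marked with an asterisk passed the exact permutation test.

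In the share called lower, the carriers lay between the respiratory chain and the remaining solute carriers. Of 225 tested solute carriers outside Slc25, 46 were higher (20.4%) and 24 lower, with a median of 0.08. Of 81 genes named as subunits of oxidative phosphorylation none was higher and 87.7% were lower. They were taken by the form of their names, which also took in Cox4nb (-0.62, called lower), a neighbour gene of Cox4 and not a subunit. Of 76 mitochondrial ribosomal proteins, 1 was higher and 16 (21.1%) were lower, with a median of -0.24, close to the carriers' median of -0.31.

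Proteins that act with the carriers were mixed. In the import machinery for carriers, the intermembrane space chaperones Timm9 (-0.79), Timm10 (-0.53) and Timm8b (-0.66) fell and 7 other components were not called. The outer membrane channel Vdac1 fell (-0.76, adjusted p = 0.000784), and Vdac2 and Vdac3 were not called. The carrier homologue Mtch2 of the outer membrane fell (-1.10, adjusted p = 0.00272) and Mtch1 was not called (0.14). Of the sideroflexins, a separate family of mitochondrial transporters, Sfxn1 (-0.50) and Sfxn4 (-0.66) fell and 3 were not called. In the calcium uniporter, which is not an Slc25 carrier, the subunit gene Ccdc109b (1.43, adjusted p = 0.000343) and the regulator Efha1 (0.48, adjusted p = 0.00696) rose, the regulator Cbara1 was not called (-0.0034, adjusted p = 0.985), and the pore gene Ccdc109a was well above background on 1 sham and 2 PPE arrays only and was not tested.

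**Figure D4:**
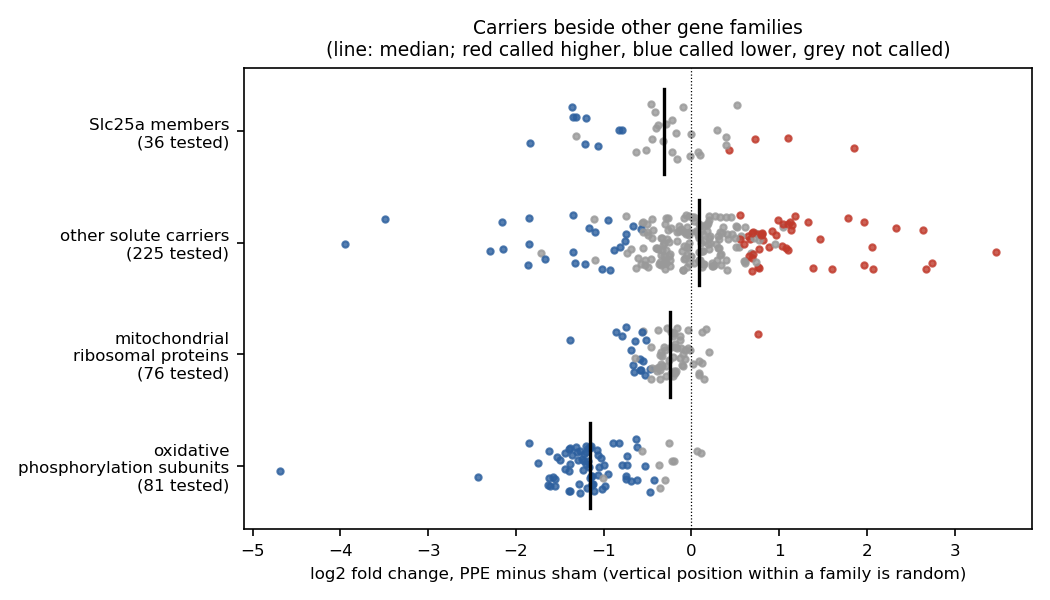
Log2 fold changes (PPE minus sham, horizontal axis) of the tested genes of 4 families, 1 point per gene, with the family median as a line. The medians are -0.31 for the 36 carriers, 0.08 for 225 other solute carriers and -0.24 for 76 mitochondrial ribosomal proteins. For 81 genes named as subunits of oxidative phosphorylation the median is -1.15.

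Several cell type marker lists also differed between the groups, whereas the means of endothelium, fat in general and skeletal muscle markers overlapped. The mean log2 ratio of 7 smooth muscle markers ranged from 3.39 to 4.30 in sham and from 1.80 to 3.0 in PPE, and their summed aorta signal from 842755 to 1288810 and from 145198 to 252585 (linear intensity). The 6 brown fat markers ranged from 3.97 to 4.83 and from 0.74 to 2.34 in mean log2 ratio, and from 229160 to 366997 and from 2214 to 13727 in summed signal, with Elovl3 not well above background on any PPE array. Ppargc1a is both a brown fat marker and a biogenesis regulator, and Ucp1 both a marker and an uncoupling protein. Cox7a1 (-4.69) and Cox8b (-2.43) are brown fat markers and are also counted among the subunits of oxidative phosphorylation.

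The 6 macrophage markers ranged from 0.98 to 1.62 in sham and from 3.20 to 4.38 in PPE, with summed signals of 24998 to 40060 and 109343 to 188820. The 5 neutrophil markers ranged from 0.19 to 0.53 and from 3.21 to 4.26, with summed signals of 1447 to 1903 and 38947 to 197175, and 2 of them (Mpo, Cxcr2) were well above background on 1 sham array only. The part of these cell types in the carriers' differences was not tested.

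**Figure D5:**
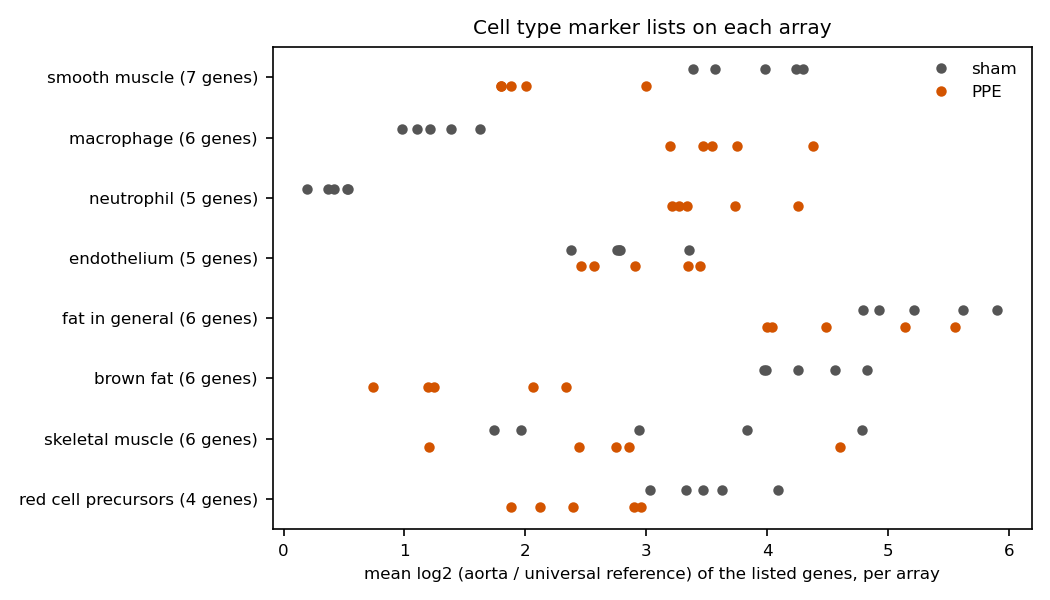
Mean log2 ratio of aorta over universal reference (horizontal axis) of 8 marker lists on each of the 5 sham (grey) and 5 PPE (orange) arrays. Sham arrays lie above all PPE arrays for smooth muscle, brown fat and red cell precursors, below them for macrophages and neutrophils, and overlap with them for endothelium, fat in general and skeletal muscle.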

How the data were processed

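The authors hybridised 500 ng of Cy5-labelled RNA from 1 aorta with a Cy3-labelled universal mouse reference on each array, without dye swaps, and extracted spots with Agilent Feature Extraction. Which arrays the authors removed for poor hybridization or as outliers is not stated. For each spot the authors deposited the signal and local background of both dyes as linear intensity values, and a log10 ratio of red over green made by the scanner software. The authors' series matrix has log2 ratios, which on 100% of spots were those of the software's processed signals (tolerance 1e-04). Of 62976 spots per array, 59305 were not controls and held 55681 probes.

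Here the background was corrected by normexp (offset 50) and log2 ratios were normalized by loess within arrays (limma 3.58.1, R 4.3.3). Outlier spots were left out, spots of a probe were averaged, and a probe was kept if its red signal passed the software's background test on 5 or more of 10 arrays. A gene is its brightest such probe. PPE was compared with sham by limma's moderated test, unpaired, with Benjamini-Hochberg adjustment over all names and a threshold of 0.01, and pairs by exact permutation, two-sided. The number of arrays limits the precision. Replicates are labelled as separate aortas. The script was tested on simulated data.

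Members, substrate classes, pairs and lists were chosen with earlier results of these data known. Every tested member could be named, and called members are given on every array, except that 1 tested member and 1 marker gene are not reported here by name or value. The 3 genes listed under other names for members (Mcart1, Mcart6, 4930443G12Rik) were looked up after the array's names were seen. Promoters are from RefSeq (GRCm38.p6), where 32 of 42 members had an entry, and probe positions are those of the array files (mm9). Protein sequences were not used here. Alternatives changed the offset, scaling, filter, probe rule, slide, scan day and replicate blocks, the arrays and the test (SAM, as the study's methods name it, at a false discovery rate of 1%).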

Additional observations from a re-analysis of the deposited data

Results flagged for a closer look

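Within each group of 5 arrays, the gap between an end value and its nearest neighbour was set against the whole range of the group, and a share above 0.71 (Dixon's limit at 95%) drew attention. Of 72 groups of values (36 carriers in sham and in PPE), 5 passed this limit, where chance alone would give about 1 in 20. Slc25a12 was lowest in PPE 5 at -1.0, against -0.16 to 0.11 on the other PPE arrays (share 0.759). Slc25a36 was highest in the same PPE 5 at 0.10, against -0.91 to -0.67 (share 0.763). Slc25a23 was highest in PPE 2 at 0.24, against -0.34 to -0.20 (share 0.764). Slc25a27 was highest in sham 3 at 0.69, against -0.07 to 0.06 (share 0.825). Slc25a28 was highest in sham 4 at -0.23, against -0.69 to -0.59 (share 0.797). PPE 5, which had the smallest percentage of spots well above background among the PPE arrays, accounted for 2 of the 5.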

How the results depend on the processing

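Slc25a1, Slc25a4, Slc25a20, Slc25a28, Slc25a33, Slc25a39, Slc25a42 and Slc25a45 kept their call under every alternative run except median centring in place of loess. Median centring gave 408 names higher and 8 lower over the whole array (98.1% of calls higher, against 58.2%), 0 carriers higher, 0 lower and 0 pairs past the threshold. There 5 of the 36 carriers had an unadjusted limma p under 0.05, 3 of them among the 13 called, against 4595 of all 22520 names. Slc25a34 turned there to a log2 fold change of 0.014. The cause was not tested. SAM called 4797 names higher and 3544 lower, with 4 carriers higher and 13 lower. The number of carriers called higher ranged from 2 to 4 and lower from 7 to 10 when 1 array was left out. Over all names those counts ranged from 2514 to 3615 and from 1752 to 2348. The number of pairs past the threshold ranged from 0 to 5 in the same fits (5 without sham 5, where Slc25a12 against Slc25a13 took the place of Slc25a16 against Slc25a42, 4 without PPE 5, 0 without any other). It was 2 with a normexp offset of 16. It was 0 on slides 1 and 2 alone, an alternative chosen after seeing the data that leaves out sham 4, sham 5 and PPE 5. Fewer arrays allow fewer relabellings, so the smallest possible exact p of a pair is larger on these slides. This 0 can therefore not be set against the main count. With slides 1 and 2 alone 3 carriers were called higher and 7 lower, and over all names 2692 higher and 1720 lower. Scanner log ratios gave 4 pairs (Slc25a12 against Slc25a13 among them, Slc25a16 against Slc25a42 and Slc25a39 against Slc25a40 not). They gave 4 carriers higher and 12 lower, and over all names 3164 higher and 3089 lower. Slc25a13, Slc25a23, Slc25a24 and Slc25a34 were the called carriers lost in some of these fits. Some carriers not called by the main test were called in some fits, Slc25a29 and Slc25a35 most often. Aquantile scaling leaves log ratios as they are by construction.

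Whether the replicate numbers of the labels pair the arrays could not be settled from these data, and the main test was unpaired. Deviations of same-numbered arrays from their group means correlated at 0.29, -0.30, 0.16, -0.14 and 0.52. Sham 5 and PPE 5 correlated best with each other, but not every array correlated best with its own number. With the replicate block, 2 carriers were called higher and 10 lower, and over all names 3024 higher and 2281 lower. For the pairs the block left 0 past the threshold, since an exact test over 5 differences cannot go below 0.0625. Slide as a fixed block gave 4 carriers higher and 12 lower (over all names 3146 and 2312). Slide as a random block gave 4 and 11 (over all names 3992 and 2943), and scan day as a block 4 and 12 (3294 and 2598). Of the tested carriers, 32 were well above background on all 10 arrays, and the 6 carriers that were dim have no result here.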
